A study of Arabidopsis thaliana with 24 samples.

Results

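GH3.3 (AT2G23170) and IAA29 (AT4G32280) are Arabidopsis genes whose transcripts are classic readouts of auxin. Both were chosen by name, as the probe sets that the array annotation pairs with 1 gene only. Each gene had 1 such probe set, 245076_at for GH3.3 and 253423_at for IAA29, so 2 of the 22746 probe sets analysed are described here. Transcripts were measured on 24 single-colour arrays from Arabidopsis thaliana, accession Col-0. All plants were 16 days old when 300 mM mannitol, a sugar alcohol that holds water back from the plant, was mixed into their medium, and every group therefore carried the same treatment. Roots and shoots were each collected at 6 times, 0.5, 1, 3, 6, 12 and 24 h into mannitol, and 2 arrays were hybridised per tissue and time. Mannitol was added after 3 h of light in a day of 16 h light, so the samples came 3.5, 4, 6, 9 and 15 h after lights on, and the 24 h samples 3 h after lights on of the next day. Untreated plants were not analysed here, and a change since 0.5 h is a change over time in mannitol that carries the time of day with it. The 1 h and 24 h samples were each taken within 0.5 h of the clock time of the 0.5 h samples. The labels do not say whether the 2 arrays of a group came from separate plants, so the p-values speak of the spread between arrays, which may be technical.

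Auxin enters the nucleus and joins a receptor of the TIR1/AFB family to an Aux/IAA protein, which is then degraded. Aux/IAA proteins hold back the auxin response factors, so their loss lets auxin-induced genes be transcribed. IAA29 encodes an Aux/IAA repressor and is itself induced by auxin. It is also known as a target of the PIF transcription factors, through which shade and warmth promote growth of the shoot. GH3.3 encodes an amido synthetase of the GH3 family, an enzyme that joins free auxin to amino acids and so lowers the active pool. Because auxin induces GH3.3 within a short time, the gene serves both as a readout of auxin and as part of its feedback.

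GH3.3 was much stronger in roots than in shoots, and in shoots it rose between 0.5 and 1 h. Its signal was higher on all 12 root arrays than on any of the 12 shoot arrays. IAA29 was weak in both tissues and fell in shoots, where it was lowest at 12 h. The levels of the probe sets are not compared with each other, since probes differ in how strongly they bind.

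**Figure D1:**
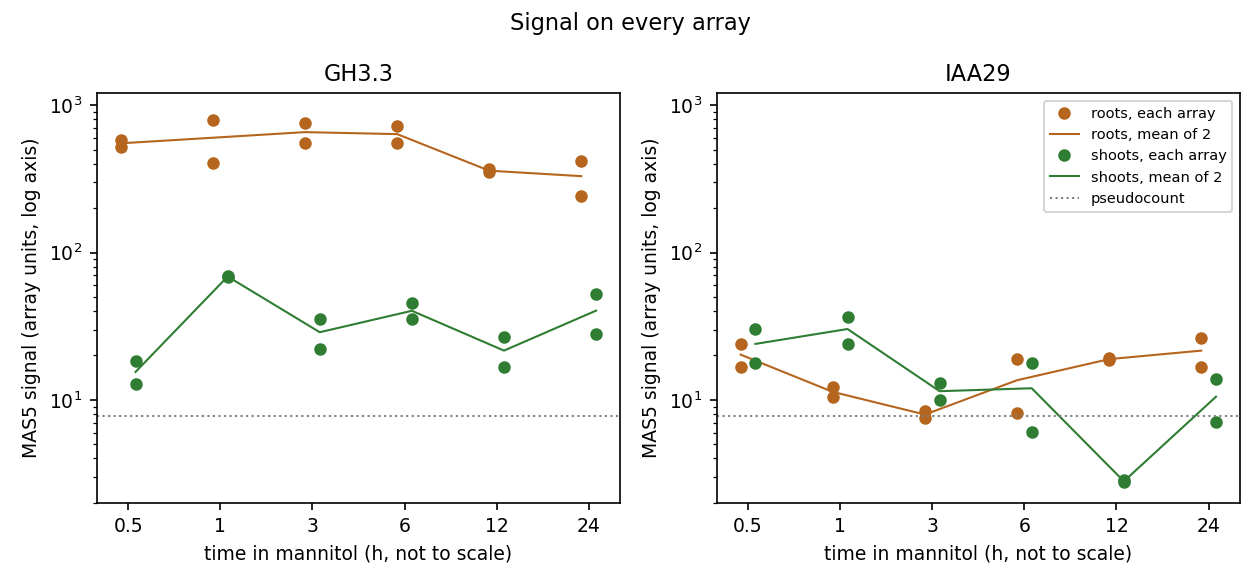
Signal of GH3.3 (left panel) and IAA29 (right panel) on every array, in array units on a log axis, against time in mannitol (equal steps, not to scale). Points are arrays, lines join the means of 2 arrays, and the dotted line is the pseudocount of 7.72 added before logs were taken. GH3.3 in roots lay between 240.7 and 798 and GH3.3 in shoots between 12.7 and 69.1, while the arrays of the tissues overlapped for IAA29 at 0.5 and 6 h.

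In roots GH3.3 had signals of 517 and 585 at 0.5 h, 798 and 404 at 1 h, 554 and 759 at 3 h, 556 and 717 at 6 h, 350.3 and 368 at 12 h, and 419 and 240.7 at 24 h. In shoots it had 18.2 and 12.7 at 0.5 h, 69.1 and 68.3 at 1 h, 22.3 and 35.3 at 3 h, 45.2 and 35.3 at 6 h, 16.6 and 26.6 at 12 h, and 28.0 and 52.7 at 24 h. On root arrays GH3.3 was among the brightest probe sets, with a median rank at the 95.4th percentile, while on shoot arrays it ranked between the 26.8th and 62.8th percentiles. The widest gap between 2 arrays of a group was 1.97-fold, in roots at 1 h, and the narrowest 1.01-fold, in shoots at 1 h.

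On the means of the linear signal, GH3.3 was 35.6 times as high in roots as in shoots at 0.5 h, 8.75 times at 1 h, 22.8 times at 3 h, 15.8 times at 6 h, 16.6 times at 12 h and 8.18 times at 24 h. Tests were run with limma on log2(signal + 7.72), which pulls differences of weak signals toward 0, with Benjamini-Hochberg adjustment over the 16814 probe sets that passed a filter on low signal. GH3.3 passed that filter in both tissues, being above the 40th percentile of its own array on 12 of 12 root arrays and on 8 of 12 shoot arrays. On this scale the root signal exceeded the shoot signal by 3.65 ± 0.13 (log2, SE) over the mean of the 6 times (adjusted p = 8.41e-15). Most probe sets differed between the tissues, 84.1% of those tested by this test, 55% being higher in roots. All 12 root arrays lay above all 12 shoot arrays for 14.8% of the tested probe sets, and a difference at least as large as that of GH3.3 and in the same direction was found for 1.23%. The median difference of all tested probe sets was 0.25, and it was 0.14 after quantile normalization and 0.04 after scaling on the median.

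At single times the GH3.3 difference, roots minus shoots, was 4.60 at 0.5 h, 2.91 at 1 h, 4.19 at 3 h, 3.74 at 6 h, 3.67 at 12 h and then 2.81 at 24 h (log2, SE 0.32 each). The smallest differences were those at 1 h and 24 h. Every one of the 6 passed, with adjusted p-values from 6.72e-10 at 0.5 h to 5.93e-07 at 24 h. Of all tested probe sets, 67.8%, 64.1%, 64.6%, 61.9%, 59% and 61.7% also passed at the same times. In whole organs fewer cells of a type and less RNA per cell cannot be told apart, and this holds for each tissue difference and each change over time given here.

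**Figure D2:**
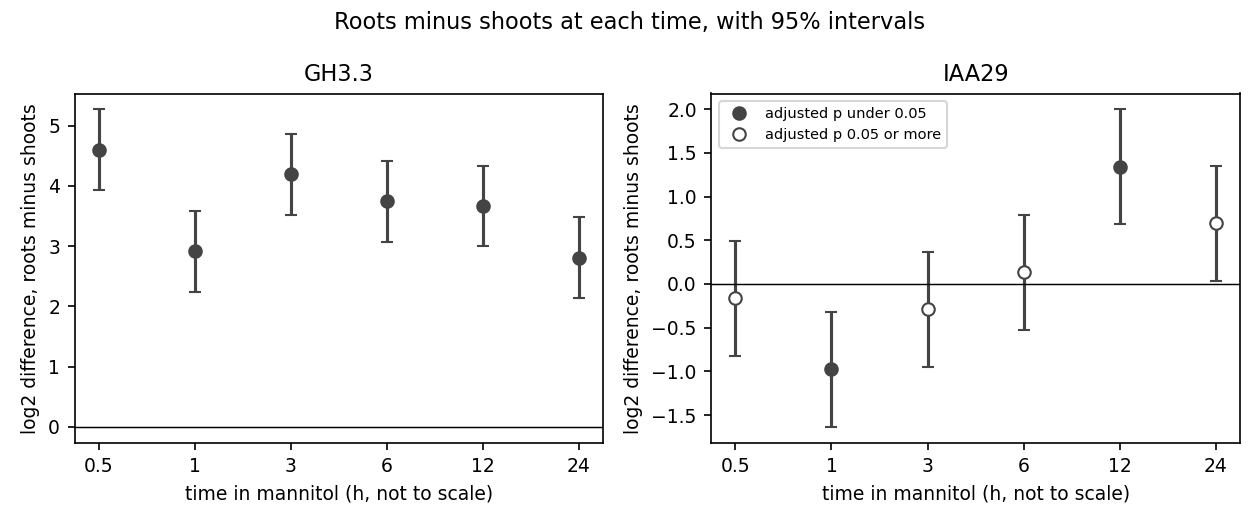
Log2 difference between roots and shoots (roots minus shoots) at each time for GH3.3 (left panel) and IAA29 (right panel), on axes of different range, against time in mannitol (equal steps). Points are limma estimates, bars 95% intervals, and open points missed an adjusted p of 0.05. GH3.3 was between 2.81 and 4.60 higher in roots at every time, whereas IAA29 was lower in roots at 1 h and higher in roots at 12 h.

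The tissue labels were checked on marker genes. The summed signal of 6 of 6 listed green tissue genes (LHCB4.1, LHCB4.2, PRK, RCA, SBPASE and PSAE-1) was 308 to 964 on root arrays and 12710 to 27893 on shoot arrays. Of 5 listed root markers only PYK10, a beta-glucosidase abundant in roots, was named by the annotation, with signals of 2730 to 3957 on root arrays and 213 to 1028 on shoot arrays. Array medians lay between 31.4 and 48.3, and the 2 arrays of a group correlated over all probe sets at 0.979 to 0.985 on the log2 scale. No 2 arrays held identical values.

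In shoots GH3.3 was lowest at 0.5 h and highest at 1 h. Both 1 h arrays lay above all 10 other shoot arrays, and on the linear means the 1 h signal was 4.44 times that at 0.5 h. The log2 change was 1.73 ± 0.32 (SE; limma adjusted p = 0.00159), at a time when 8.8% of tested probe sets passed, 4.26% higher and 4.54% lower. Leaving out any 1 of the 4 arrays gave changes between 1.56 and 1.90, each past the threshold. The change passed in 9 of 9 alternative settings, with values from 1.11 with 4 times the pseudocount to 2.18 with none. GH3.3 was weak at 0.5 h, at the 35.5th and 26.8th percentiles of its 2 arrays.

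After the 1 h maximum the shoot signal of GH3.3 was lower at 3 h, by a step from 1 h of -1.09 ± 0.32 (adjusted p = 0.0148), where 30% of tested probe sets passed. That step missed the threshold without shoots 1 h replicate 1 (0.0649), without shoots 1 h replicate 2 (0.0625) and without shoots 3 h replicate 1 (0.147). At 3 h GH3.3 was 0.64 ± 0.32 above 0.5 h and did not pass (adjusted p = 0.128, with 35.6% of probe sets passing). At 12 h the difference was 0.33 ± 0.32 (0.409, with 53% passing).

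GH3.3 in shoots was also past the threshold at 6 h, 1.05 ± 0.32 above 0.5 h (adjusted p = 0.0112), and at 24 h, 1.01 ± 0.32 above it (0.0111). Those were times at which 48.1% and 58.6% of tested probe sets passed. The share that was higher was 22.8% at 6 h and 25.4% at 24 h, and 25.4% and 33.2% were lower. Both calls rested on single arrays. The 6 h call was lost when shoots 0.5 h replicate 2 (0.0843) or shoots 6 h replicate 1 (0.082) was left out, and the 24 h call when shoots 0.5 h replicate 2 (0.0835) or shoots 24 h replicate 2 (0.154) was. With 4 times the pseudocount both calls were lost (0.0648 at 6 h and 0.0619 at 24 h). The 2 arrays at 24 h differed 1.88-fold, 28.0 against 52.7. All 5 shoot comparisons share the same 0.5 h arrays, whose signals were the lowest group of the course.

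Ordered by mean signal, the shoot groups of GH3.3 ran from 1 h (68.7 ± 0.535, SD, n = 2) through 24 h (40.3 ± 17.4), 6 h (40.2 ± 7.0), 3 h (28.8 ± 9.21) and 12 h (21.6 ± 7.05) to 0.5 h (15.5 ± 3.89). Only the pair at the top of that order was separated: the arrays of 1 h lay above those of 24 h, and each of the other neighbouring groups overlapped.

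In roots no time differed from 0.5 h past the threshold for GH3.3. The differences were 0.047 at 1 h (adjusted p = 0.976), 0.23 at 3 h (0.636), 0.20 at 6 h (0.678), -0.60 at 12 h (0.145) and then -0.78 at 24 h (0.0595), each ± 0.32 (SE). The 95% interval at 1 h ran from -0.62 to 0.72. The shares of tested probe sets passing in roots were 0.737%, 24.1%, 33.9%, 37.7% and 40.8% at these 5 times, and at 24 h 17% were higher and 23.8% lower. At 24 h the value of GH3.3 lay near the threshold and crossed it under quantile normalization (-0.90, adjusted p = 0.0351), with 4 times the pseudocount (-0.73, 0.0337) and without roots 24 h replicate 1 (-1.17, 0.0236).

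The means of the root groups of GH3.3 ran in the order 3 h (656 ± 145, SD, n = 2), 6 h (636 ± 114), 1 h (601 ± 278), 0.5 h (551 ± 47.5), 12 h (359 ± 12.5) and 24 h (330 ± 126). Both 0.5 h arrays lay above both 12 h arrays, and the other neighbours overlapped. The step from 6 h to 12 h, -0.80 ± 0.32, did not pass (adjusted p = 0.516); 0.0297% of tested probe sets passed there.

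**Figure D3:**
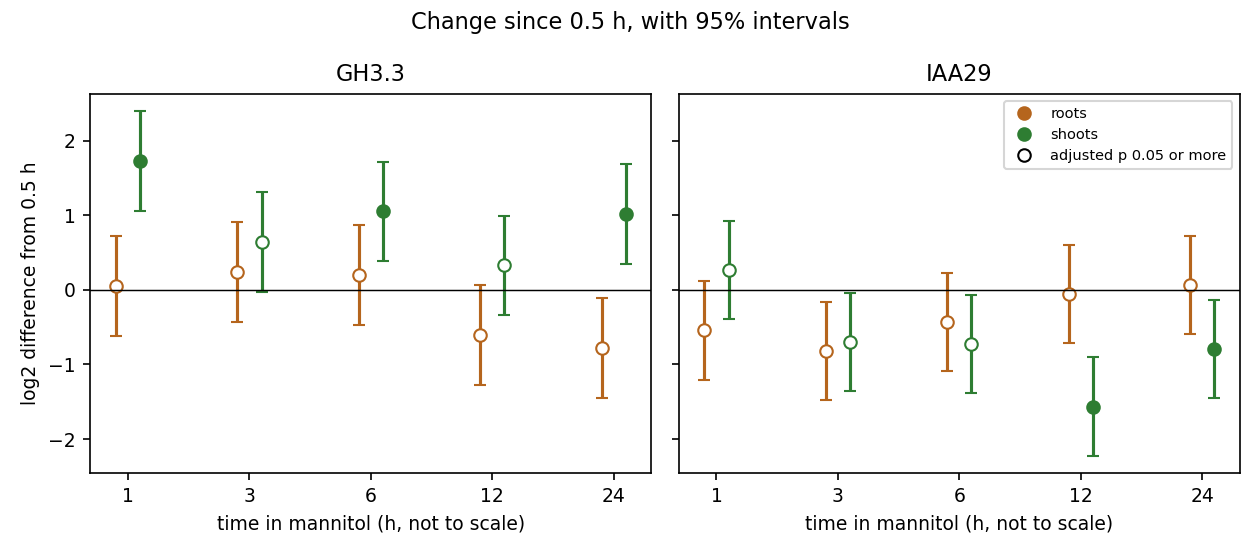
Log2 change since 0.5 h of GH3.3 (left panel) and IAA29 (right panel) in roots and in shoots, against time in mannitol (equal steps). Points are limma estimates, bars 95% intervals, and open points missed an adjusted p of 0.05. In shoots GH3.3 was 1.73 higher at 1 h and IAA29 was 1.56 lower at 12 h, and no root value of either gene passed.

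The change of GH3.3 differed between the tissues at 1 h and at 24 h. The root change minus the shoot change was -1.68 ± 0.45 at 1 h (limma interaction, adjusted p = 0.0413) and -1.79 ± 0.45 at 24 h (0.00483), where 4.22% and 35.3% of tested probe sets passed. The 24 h difference kept its call when any 1 of its 8 arrays was left out, with values from -2.18 to -1.40. The 1 h difference kept it in 2 of 8 such fits, with values from -2.17 to -1.20, and the 2 root arrays at 1 h stood 1.97-fold apart. It was also lost with 4 times the pseudocount (0.13), with no filter (0.0597) and with no variance trend (0.0513). At 3, 6 and 12 h the differences were -0.41, -0.85 and -0.93 and none passed (adjusted p = 0.565, 0.169 and 0.116), where 21.5%, 28.7% and 35.3% of tested probe sets did.

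Measures of tissue and RNA also moved over the shoot course. PYK10, the root marker, averaged 947 at 0.5 h in shoots, 459 at 1 h, 369 at 3 h, 270.3 at 6 h, 268 at 12 h and then 361 at 24 h. The summed green markers averaged 26188 at 0.5 h, 26123 at 1 h, 26693 at 3 h, 22111 at 6 h, 12711 at 12 h and then 15147 at 24 h in shoots. The ratio of 3' to 5' signal on the first actin control, a sign of RNA quality, averaged 6.77, 7.86, 10.3, 12.1, 12.8 and 16.7 over the 6 times in shoots. The second actin control ran between 2.33 and 2.67 in shoots and the GAPDH control between 1.35 and 1.73, neither with a steady rise. In roots the first actin ratio stayed between 11.1 and 12.3, while the summed green markers averaged 314 at 0.5 h and 850 at 24 h. The part of these measures in the results on GH3.3 and IAA29 was not tested.

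IAA29 had signals in roots of 23.9 and 16.6 at 0.5 h, 12.3 and 10.4 at 1 h, 7.53 and 8.37 at 3 h, 19.0 and 8.19 at 6 h, 18.6 and 19.2 at 12 h, and 26.3 and 16.8 at 24 h. In shoots it had 17.9 and 30.1 at 0.5 h, 24.0 and 36.5 at 1 h, 9.95 and 12.9 at 3 h, 17.9 and 6.07 at 6 h, 2.75 and 2.85 at 12 h, and 13.9 and 7.08 at 24 h. The gene was thus near the floor on most arrays. It lay below its array's 40th percentile on all 12 root arrays and on 10 of 12 shoot arrays, so that it entered the tests through 2 shoot arrays alone, 1 at 0.5 h and 1 at 1 h. Its falls from those times, and its lower signal in roots than in shoots at 1 h, are therefore not independent of the filter. The same holds for the differences between tissues in its change since 0.5 h. The pseudocount of 7.72 exceeded its signal on 1 root array and 4 shoot arrays, and detection calls were not used here.

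IAA29 fell in shoots by 1.56 ± 0.31 on the log2 scale at 12 h (limma adjusted p = 0.000412), a time at which 53% of tested probe sets passed, 27.4% lower and 25.6% higher. Both 12 h arrays lay below all 10 other shoot arrays and ranked at the 13.4th percentile of their arrays on average. At such levels the size of the fall is not well measured. The direction and the call held in 8 of 8 alternative settings, no filter among them, and when any 1 of the 4 arrays was left out, with values from -1.84 to -1.28. The size of the fall depended on the pseudocount, being -3.05 with none and -0.69 with 4 times as much.

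At 24 h, close to the clock time of the 0.5 h samples, IAA29 in shoots was lower by 0.80 ± 0.31 (adjusted p = 0.0364, with 33.2% of tested probe sets lower). That call was lost without shoots 0.5 h replicate 2 (0.264), without shoots 24 h replicate 2 (0.253), under quantile normalization (0.12), under median scaling (0.110) and when shoots were fitted alone (0.0565). At 1 h the difference was 0.27 ± 0.31 (adjusted p = 0.708), at 3 h -0.70 ± 0.31 (0.0897) and at 6 h -0.73 ± 0.31 (0.0643), none of which passed. The 6 h value passed when shoots 0.5 h replicate 1 (0.0416) or shoots 6 h replicate 1 (0.0122) was left out. The step from 1 h to 3 h in shoots was -0.97 ± 0.31 (0.0254), with both 3 h arrays below both 1 h arrays, and it was lost in 3 of 4 fits that left out 1 array, those without shoots 1 h replicate 2 (0.192), shoots 3 h replicate 1 (0.139) or shoots 3 h replicate 2 (0.0571). It was also lost with no pseudocount (0.052).

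In roots no change of IAA29 since 0.5 h passed. The values were -0.54 (1 h, adjusted p = 0.515), -0.82 at 3 h (0.0636), -0.43 at 6 h (0.309), -0.060 at 12 h (0.905) and then 0.060 at 24 h (0.903), each ± 0.31 (SE). Both 3 h root arrays lay below all other root arrays except the lower one at 6 h, at 8.19. The 3 h value passed in a fit of root arrays alone (0.0358).

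The shoot groups of IAA29 ran from 1 h (30.2 ± 8.84, SD, n = 2) through 0.5 h (24.0 ± 8.61), 6 h (11.99 ± 8.36), 3 h (11.4 ± 2.11) and 24 h (10.5 ± 4.84) to 12 h (2.80 ± 0.0660). Only 24 h and 12 h were neighbours without overlap. In roots the order was 24 h (21.6 ± 6.71), 0.5 h (20.3 ± 5.13), 12 h (18.9 ± 0.418), 6 h (13.6 ± 7.62), 1 h (11.3 ± 1.31) and 3 h (7.95 ± 0.594), and only 1 h and 3 h did not overlap.

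IAA29 was lower in roots than in shoots at 1 h and higher in roots at 12 h. At 1 h the root arrays, 12.3 and 10.4, lay below the shoot arrays, 24.0 and 36.5, a difference of -0.98 ± 0.31 (adjusted p = 0.0111, roots minus shoots), which was lost when shoots 1 h replicate 2 (0.112) or roots 1 h replicate 2 (0.058) was left out. At 12 h the root arrays, 18.6 and 19.2, lay above the shoot arrays, 2.75 and 2.85, a difference of 1.34 ± 0.31 (0.00131). The shoot arrays lay under the pseudocount there, and this difference was 2.75 with no pseudocount and 0.56 with 4 times as much, past the threshold in both cases. Shares of 64.1% and 59% of tested probe sets passed at these times. The other times gave -0.16 at 0.5 h, -0.29 at 3 h, 0.13 at 6 h and then 0.69 at 24 h, none past the threshold. The 24 h value passed without shoots 24 h replicate 1 (0.0391) and without roots 24 h replicate 2 (0.0488). The mean over the 6 times was 0.12 ± 0.13 (adjusted p = 0.375), and its sign turned under quantile normalization (-0.10) and median scaling (-0.089).

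The change of IAA29 at 12 h differed between the tissues by 1.504 ± 0.44 (root change minus shoot change, adjusted p = 0.0135), a test that 35.3% of tested probe sets passed. It missed the threshold without shoots 0.5 h replicate 2 (0.0647) and without roots 0.5 h replicate 2 (0.0585). Its size too depended on the pseudocount, being 2.97 with none and 0.66 with 4 times as much. The shoot baseline at 0.5 h held 1 of the 2 arrays through which IAA29 passed the filter. The differences at the other times were -0.81 at 1 h, -0.12 at 3 h, 0.30 at 6 h and then 0.86 at 24 h, and none of these passed (adjusted p from 0.144 to 0.877).

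Across the 12 group means GH3.3 and IAA29 had a Pearson r of 0.136, on values that share arrays and depend on the difference between tissues. Within shoots r was 0.37 over 6 means and within roots -0.76, both as descriptions only. The 5 genes with the pattern most like GH3.3, among 9205 tested probe sets naming 1 other gene, were AT1G69050 (r = 0.985), AT4G11380 (0.981), AT3G04780 (0.981), AT2G21850 (0.980) and AT5G28920 (0.979). Each of these 5 had its lowest root mean above its highest shoot mean, and within the 6 shoot means alone their r to GH3.3 was 0.595 to 0.811. For IAA29 they were AT3G51670 (0.891), AT1G32610 (0.886), AT4G34215 (0.874), AT1G68185 (0.866) and AT2G05755 (0.863), which within shoots alone gave 0.906 to 0.952.

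Other genes of auxin synthesis, inactivation and response were set beside the pair from lists of 208 further genes. The annotation named 26 of them and 14 were tested, with no receptor, response factor, transporter, SAUR gene or PIF factor among them. Of these 14, no gene rose and 1 fell in shoots at 1 h, where GH3.3 rose, beside 4.26% higher and 4.54% lower among all tested probe sets. At 12 h in shoots, where IAA29 fell, 1 rose and 5 fell, beside 25.6% and 27.4% of all tested probe sets. The median of the 14 was -0.30, against -0.05 for all tested probe sets. In roots at 24 h, where neither GH3.3 nor IAA29 passed, 3 rose and 2 fell, beside 17% and 23.8%. In shoots at 12 h a smaller part of the 14 rose, and a larger part fell, than of all tested probe sets. With 14 genes such counts are coarse, and no set test was run.

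**Figure D4:**
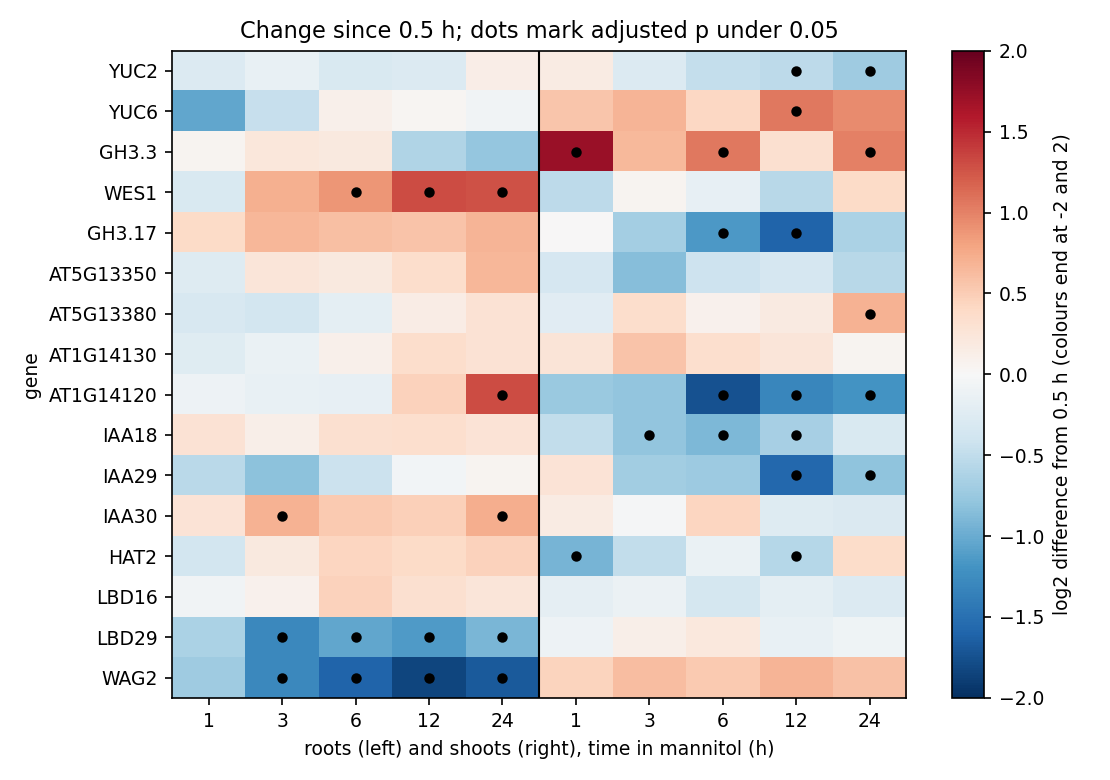
Log2 change since 0.5 h of the 16 tested auxin-list genes, by row, at each time in roots (left columns) and in shoots (right columns); red is higher and blue lower than 0.5 h, and dots mark an adjusted p under 0.05. GH3.3 is the 1 gene of the 16 with a dot for a rise in shoots at 1 h, and LBD29 and WAG2 carry dots for a fall in roots from 3 h on.

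Other GH3 genes passed the test in roots (WES1) and in shoots (GH3.17 and AT5G13380). WES1, the gene table's symbol for the family member that conjugates both auxin and salicylic acid, rose in roots by 1.30 ± 0.33 at 12 h (limma adjusted p = 0.00479) and by 1.27 ± 0.33 at 24 h (0.00502), times at which GH3.3 was at -0.60 and -0.78 there without passing. Both WES1 calls were lost without roots 0.5 h replicate 2 (0.05 and 0.0512) and without 1 array of the later time, its rise of 0.88 at 6 h (0.0468) was kept in 0 of 4 fits that left out an array, and the difference between the genes was not tested. GH3.17, which conjugates auxin to glutamate, fell in shoots by 1.15 ± 0.32 at 6 h (0.00686, lost without shoots 6 h replicate 2 at 0.0814) and by 1.60 ± 0.32 at 12 h (0.000456, kept in 4 of 4 such fits). The 12 h value of GH3.17 was -2.74 with no pseudocount and -0.81 with 4 times as much, past the threshold in both cases. Of the 2 further GH3-list loci tested, AT5G13380 rose in shoots at 24 h by 0.70 ± 0.21 (0.00894), a call lost when shoots 0.5 h replicate 1 or shoots 24 h replicate 2 was left out, and no change of AT5G13350 since 0.5 h passed.

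Among the Aux/IAA repressors, the family of IAA29, IAA18 fell in shoots by 0.79 at 3 h, by 0.89 at 6 h and by 0.67 at 12 h (SE 0.17 each, adjusted p = 0.00146, 0.000292 and 0.00298), and each call was kept in 4 of 4 fits that left out an array. IAA30 rose in roots by 0.69 ± 0.20 at 3 h (0.0194) and by 0.73 ± 0.20 at 24 h (0.00772). The 3 h rise was kept in 1 of 4 such fits and the 24 h rise in 3 of 4. The other 4 named members, IAA20, IAA31, IAA33 and IAA34, were too weak to be tested.

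Of the enzymes that make auxin, the flavin monooxygenase genes YUC2 and YUC6 were tested. YUC6 was weak in shoots, with a median signal of 5.88, under the pseudocount. Its shoot change at 12 h ran from 0.42 to 2.56 over the other settings and fits without 1 array, so its size is not well measured. YUC2 fell in shoots by 0.71 ± 0.21 at 24 h (adjusted p = 0.00916), a call lost without shoots 0.5 h replicate 1 (0.0584), without shoots 24 h replicate 2 (0.0915) and under median scaling (0.0516). The shoot calls at 12 h, 0.52 lower for YUC2 and 1.06 higher for YUC6, lay at adjusted p-values of 0.0497 and 0.046 and were each kept in 1 of 4 fits that left out an array and in 4 alternative settings (of 9 for YUC2 and 8 for YUC6). AT1G14120, from the list for conjugate hydrolysis and oxidation, fell in shoots by 1.74 ± 0.35 at 6 h (0.000489, kept in 4 of 4 such fits), by 1.30 at 12 h and by 1.19 at 24 h (0.00439 and 0.00708, each kept in 3 of 4). With 4 times the pseudocount the 12 h and 24 h calls of AT1G14120 were lost (0.0636 and 0.0707). Its shoot signal had a median of 6.92, under the pseudocount, and the size of its falls depended on that choice, the 6 h value being -4.19 with no pseudocount and -0.70 with 4 times as much. It rose in roots by 1.30 ± 0.35 at 24 h (0.00646), a call lost without roots 0.5 h replicate 2 (0.0731) and with no pseudocount (0.134).

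Of 9 listed further auxin-induced genes, 4 were tested. WAG2, a kinase that acts on auxin efflux carriers, fell in roots by 1.28, 1.60, 1.83 and 1.68 at 3, 6, 12 and 24 h (SE 0.29 each, adjusted p = 0.00429, 0.000521, 0.000139 and 0.00023). The 3 h call of WAG2 was lost with no pseudocount (0.0745) and when roots 0.5 h replicate 2 or roots 3 h replicate 1 was left out, and the later ones were kept in each such fit. LBD29, a transcription factor of lateral root formation, fell in roots by 1.29 at 3 h and by 1.14 at 12 h (SE 0.27 each, 0.00238 and 0.0032), calls that were lost when no pseudocount was added (0.0735 and 0.0932). LBD29 reached at most 5.43 in shoots, under every array's 40th percentile (17.6 or more), and had a median of 16.9 in roots. It thus entered the tests through root arrays alone, and its falls from 0.5 h may not be independent of the filter. Its falls of 1.04 at 6 h (0.00665) and 0.92 at 24 h (0.0115) were each kept in 2 of 4 fits that left out an array, and were also lost with no pseudocount (0.137 and 0.182). HAT2, a homeodomain transcription factor, fell in shoots by 0.93 ± 0.19 at 1 h (0.00471), the time of the GH3.3 maximum, and the call was lost without shoots 0.5 h replicate 2 (0.067).

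**Figure D5:**
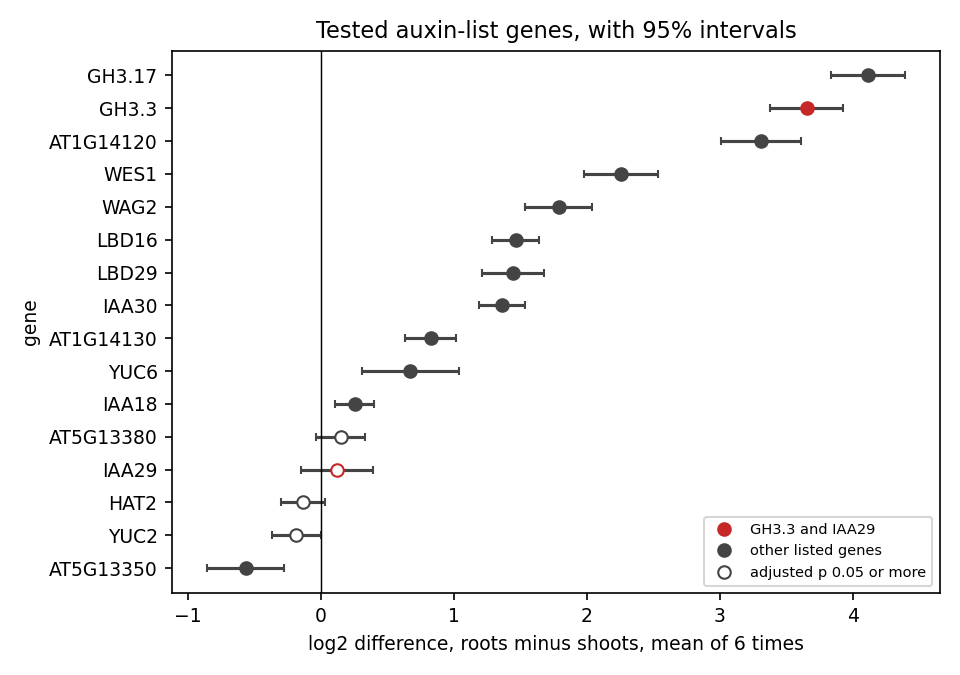
Log2 difference between roots and shoots (roots minus shoots), mean of 6 times, for each tested auxin-list gene (rows, sorted), with 95% intervals; red marks GH3.3 and IAA29, and open points missed an adjusted p of 0.05. GH3.3 at 3.65 stands next to GH3.17 at 4.11 at the top, and IAA29 at 0.12 lies among the genes with no difference past the threshold.

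Between the tissues, 10 of the 14 other listed genes were higher in roots past the threshold and 1 was lower, beside 55% and 29.1% of all tested probe sets. GH3.17 exceeded its shoot level by 4.11 ± 0.13 in roots, AT1G14120 by 3.31 ± 0.14 and WES1 by 2.26 ± 0.13, beside 3.65 for GH3.3. Of the 5 tested genes of the GH3 list, GH3.3, GH3.17 and WES1 were called higher in roots. AT5G13350 was lower in roots past the threshold, and AT5G13380 did not pass. AT5G13350 reached at most 22.2 in roots and 38.2 in shoots, where the 40th percentile of an array lay between 17.6 and 31.3. Its lower root signal may therefore not be independent of the filter. The AT5G13350 difference lay between -0.90 and -0.28 over the other settings and fits without 1 array. IAA29 and IAA18, at 0.12 and 0.26, lay close to the median of all tested probe sets, the call of IAA18 being lost under median scaling (0.591), and IAA30 was 1.37 ± 0.08 higher in roots. LBD29 and WAG2, also among the 10, reached at most 5.43 and 14.1 in shoots, under every array's 40th percentile (17.6 or more). They entered the tests through root arrays alone, so their higher root signals are not independent of the filter. AT1G14120, IAA30 and LBD16, with shoot medians of 6.92, 12.9 and 14.8, passed it mainly through root arrays. GH3.17 and YUC6, also among the 10, had shoot medians of 20.4 and 5.88 and root medians of 458 and 19.0. Their higher root signals may depend in part on the filter too. The AT1G14120 difference ran from 2.14 to 4.68 over the other settings and fits without 1 array.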

How the data were processed

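The deposited values are linear MAS5 signal intensities per probe set, computed by the authors per the submitters' processing notes, which give no version or scaling target. Control probe sets, 64 of 22810, were dropped. The intensities were turned into log2(signal + 7.72), where 7.72 is the 20th percentile of every signal on the 24 arrays. A probe set was tested if 2 or more arrays held it above their 40th percentile, which kept 16814 and dropped 5932. Limma 3.58.1 in R 4.3.3 was fitted to all arrays using 12 group means and a trend of variance on signal, with 12 residual and 5.28 prior degrees of freedom. Within a comparison, Benjamini-Hochberg adjustment ran over every tested probe set, and an adjusted p under 0.05 passed.

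The array annotation named 1 gene for 13513 probe sets, several for 503 and none for 8730. Of the 13513, 13436 matched the RefSeq gene table. Genes named are GH3.3 and IAA29, listed auxin and light genes, and the 5 genes most like each by Pearson r over the group means. Genes, lists and tests were chosen with earlier results of these data known. Alternatives covered normalization, pseudocount, filter, variance trend, arrays in the fit, replicate block and leaving out each array. The fit was tested on simulated data. With no read counts, the number of arrays limits the precision. Sequences are not shown here.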

Additional observations from a re-analysis of the deposited data

Results flagged for a closer look

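For 3 results the change since 0.5 h differed between roots and shoots by an interaction test in limma. GH3.3 at 1 h had a root change minus shoot change of -1.68 ± 0.45 (adjusted p = 0.0413), from 0.047 in roots and 1.73 in shoots. GH3.3 at 24 h had -1.79 ± 0.45 (0.00483), from -0.78 in roots, which did not pass by itself, and 1.01 in shoots. IAA29 at 12 h had 1.504 ± 0.44 (0.0135), from -0.060 in roots and -1.56 in shoots, and is not independent of the filter. These 3 are among 10 such differences tested for the 2 genes. Of all tested probe sets, 4.22%, 21.5%, 28.7%, 35.3% and 35.3% passed the same test at 1, 3, 6, 12 and 24 h. The 1 h difference of GH3.3 ran from -2.17 to -1.20 when 1 of its arrays was left out. No group held the 4 or more arrays that a search for single outlying arrays needs.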

How the results depend on the processing

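The report's limits are 2 arrays a group, shared 0.5 h arrays, no untreated plants, and the low signal of IAA29, which the stricter filter left untested. No steady pairing of arrays by replicate number was seen. Deviations of same-numbered arrays correlated at -0.16 to 0.35 over 66 pairs of groups, 13 of them over 0.1 and 4 under -0.1. For the 6 pairs of shoots and roots of the same time the correlation ran from -0.11 to 0.041. A replicate block changed no call of GH3.3 or IAA29; with it GH3.3 kept 1.73 in shoots at 1 h and IAA29 kept -1.56 in shoots at 12 h, while WES1 at 6 h in roots (adjusted p = 0.0528) and YUC6 at 12 h in shoots (0.0512) lost theirs. Over other settings, with limma's adjusted p in brackets, GH3.3 with 4 times the pseudocount gave 0.62 in shoots at 6 h (0.0648), 0.60 in shoots at 24 h (0.0619), -0.73 in roots at 24 h (0.0337) and -1.06 for root change minus shoot change at 1 h (0.13). That last difference stayed at -1.68 without a filter (0.0597) and without a variance trend (0.0513). Quantile normalization gave GH3.3 -0.90 in roots at 24 h (0.0351). IAA29 in shoots at 24 h was -0.58 under quantile normalization (0.12), -0.61 under median scaling (0.110) and -0.80 in a fit of 1 tissue (0.0565), a fit that gave -0.82 in roots at 3 h (0.0358). Without a pseudocount IAA29 in shoots gave -1.38 for the step to 3 h (0.052), -1.90 for that to 12 h (0.0228) and 1.83 for that to 24 h (0.0229).

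The sign of IAA29 turned under quantile normalization in roots at 12 h (0.095), in roots minus shoots at 6 h (-0.051) and over the mean (-0.10), and in the difference between tissues at 3 h (0.011). Under median scaling it turned in roots at 12 h (0.076), in roots minus shoots at 6 h (-0.067) and over the mean (-0.089), and in the shoot step from 3 h to 6 h (0.00477), as with 4 times the pseudocount (0.00526). None of these values passed. The cause of each of these changes was not tested.

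Leaving out 1 array gave the following lowest and highest values for results that changed call or sign. The array left alone in its group was taken to vary like the other groups. For GH3.3 in shoots they were 0.88 and 1.22 at 6 h, 0.63 and 1.39 at 24 h and -1.35 and -0.83 for the step from 1 h to 3 h. For GH3.3 in roots they were -0.44 and 0.53 at 1 h, -1.17 and -0.39 at 24 h, -0.30 and 0.67 for the step to 3 h, -0.26 and 0.19 for that to 6 h and -0.56 and 0.22 for that to 24 h. For GH3.3 the root change minus shoot change at 1 h gave -2.17 and -1.20. For IAA29 in shoots they were -0.012 and 0.55 at 1 h, -1.17 and -0.28 at 6 h, -1.08 and -0.52 at 24 h, -1.21 and -0.73 for the step from 1 h to 3 h, -0.47 and 0.42 for the step from 3 h to 6 h and -1.28 and -0.39 for the step from 6 h to 12 h. For IAA29 in roots they were -0.25 and 0.13 at 12 h, -0.18 and 0.30 at 24 h, -0.0042 and 0.74 for the step from 6 h to 12 h and -0.12 and 0.36 for the step from 12 h to 24 h. For IAA29 roots minus shoots gave -0.45 and 0.12 at 0.5 h, -1.22 and -0.74 at 1 h, -0.31 and 0.58 at 6 h and 0.42 and 0.97 at 24 h, and the root change minus shoot change gave -0.40 and 0.16 at 3 h, -0.15 and 0.74 at 6 h and 1.22 and 1.78 at 12 h.

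Called probe sets in roots at 1 h numbered 124, and 101 without a pseudocount, 264 with 4 times the pseudocount and 19 to 197 without 1 array. Without 1 array they were 856 to 1466 in shoots at 1 h, against 1480, and 1955 to 2831 in roots at 3 h, against 4048. In roots they were 3317 to 4178 at 6 h, against 5696, and 4051 to 4994 at 12 h, against 6334. Fits without 1 array rest on fewer arrays. Of the 14 further auxin-list genes 11 differed between tissues, beside 84.1% of all tested probe sets. The count was 7 with the stricter filter and 18 with none, which change the number tested. In roots at 6 h 3 were called, beside 33.9% of all tested probe sets, and 1 to 6 over the settings. In shoots at 24 h 3 were called, beside 58.6%, and 2 to 6 over the settings.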
